A study of Mus musculus with 17 samples.

Results

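Haematopoietic stem cells (HSCs) of old mice given Mito-Q were compared, across all genes, with HSCs of mice labelled as old controls. Of the 17 bulk RNA sequencing libraries of the series, 8 entered this comparison, chosen by their sample titles: 5 from old Mito-Q mice and 3 from old control mice. All mice were C57BL/6 Jrj, and both groups were over 18 months of age. Mito-Q was injected intraperitoneally on 5 days, once a day, at 2 mg/kg. Another 4 libraries from control mice aged 8 to 12 weeks (young control) served as a second reference. A further 5 libraries came from mice aged 8 to 12 weeks given CCCP in 1 injection at 0.3 mg/kg. These CCCP libraries were compared with no group but entered the gene filter, the scaling and the estimate of the spread between libraries. In every group the cells were taken from crushed bone, enriched for c-kit and sorted as lineage-negative, c-kit+, Sca1+, CD48-, CD150+ cells. The labels did not say whether the controls were injected with vehicle, how long after the last injection the marrow was taken, whether each library was a separate mouse, or on which day a library was prepared. Treatment and handling therefore cannot be told apart here, and p-values measure only the spread between libraries, which may be technical. In bulk RNA a smaller share of cells carrying a transcript and less of it per cell cannot be told apart either.

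HSCs divide rarely and give rise to all blood lineages, and those of old mice carry a recognised set of raised transcripts that includes megakaryocyte and adhesion genes. Mito-Q is a ubiquinone joined to a lipophilic cation, which mitochondria take up along their membrane potential, where it acts as an antioxidant. Immediate early genes are switched on within minutes of a signal from growth factors, cytokines or stress, without new protein synthesis. They encode short-lived transcription factors (Fos, Jun, Egr, Nr4a, Klf) together with the phosphatases and RNA-decay factors that shut the response off. Their transcripts also rise when tissue is dissociated or cells are held before lysis.

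Of 24523 genes tested with edgeR's quasi-likelihood test, 133 (0.542%) had a Benjamini-Hochberg adjusted p below 0.05. Those higher with Mito-Q numbered 129 (0.526%) and those lower 4 (0.0163%). Immediate early genes were among the higher genes. They were followed in 6 lists: AP-1 and Maf factors, Egr and Srf, Nr4a receptors, Krüppel-like factors, MAPK feedback, and Ier, Zfp36 and Btg/Tob genes. Of 64 tested members, 28 were higher and none lower in this main fit. The lists were written with earlier results of these data known, so this is a description and not a test. The lists of respiratory chain genes held no called member, nor did those of NRF2 targets, HSC identity or HSC ageing. Single libraries moved the count of 133 called genes, to 79 when old control 2 was left out and to 81 when old control 3 was. Leaving out old control 1 gave 142 genes, of which 67.6% were higher, against 97.0% with all libraries.

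The promoters of 6 called early response genes are shown because the genes moved together and each holds a motif that a search found. They are the 250 bases before the first start that the RefSeq promoter table lists for the gene on GRCm38.p6, 5′ to 3′ on its strand, with capitals marking the motifs. The GENCODE spans of Atf3, Zfp36 and Dusp1 begin further upstream and include these windows, and that of Dusp5 overlaps the end of its window. Fos lies at chr12:85473640-85473889 on the plus strand and holds a cyclic AMP response element (CRE) core and an NF-kB site. Atf3, at chr1:191183334-191183583 on the minus strand, has a CRE core 8 bases before that start. Zfp36, at chr7:28379229-28379478 on the minus strand, has a CArG box, the motif of serum response factor. Dusp1, at chr17:26508473-26508722 on the minus strand, has 3 CRE cores, of which the last 2 overlap on opposite strands. Btg2, at chr1:134079156-134079405 on the minus strand, has 2 overlapping CRE cores. Dusp5, at chr19:53528895-53529144 on the plus strand, has 2 adjacent CArG boxes and a CRE core.
Fos: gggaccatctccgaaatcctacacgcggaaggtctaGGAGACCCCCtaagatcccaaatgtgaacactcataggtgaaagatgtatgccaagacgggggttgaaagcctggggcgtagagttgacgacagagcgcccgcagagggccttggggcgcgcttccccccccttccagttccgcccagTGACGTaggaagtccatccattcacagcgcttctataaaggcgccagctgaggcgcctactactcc
Atf3: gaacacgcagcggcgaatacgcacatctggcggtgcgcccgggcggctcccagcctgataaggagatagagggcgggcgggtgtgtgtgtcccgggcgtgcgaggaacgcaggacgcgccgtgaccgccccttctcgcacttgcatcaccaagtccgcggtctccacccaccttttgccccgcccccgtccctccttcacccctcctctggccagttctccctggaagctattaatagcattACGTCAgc
Zfp36: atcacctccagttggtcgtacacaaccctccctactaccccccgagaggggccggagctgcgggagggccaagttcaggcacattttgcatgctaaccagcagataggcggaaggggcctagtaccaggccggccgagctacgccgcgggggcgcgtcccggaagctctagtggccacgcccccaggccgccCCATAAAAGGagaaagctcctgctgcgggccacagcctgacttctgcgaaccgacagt
Dusp1: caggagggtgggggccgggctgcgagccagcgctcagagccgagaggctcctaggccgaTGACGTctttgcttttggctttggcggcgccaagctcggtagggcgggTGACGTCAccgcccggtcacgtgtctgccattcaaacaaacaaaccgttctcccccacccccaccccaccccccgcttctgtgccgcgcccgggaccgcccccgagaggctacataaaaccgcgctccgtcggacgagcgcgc
Btg2: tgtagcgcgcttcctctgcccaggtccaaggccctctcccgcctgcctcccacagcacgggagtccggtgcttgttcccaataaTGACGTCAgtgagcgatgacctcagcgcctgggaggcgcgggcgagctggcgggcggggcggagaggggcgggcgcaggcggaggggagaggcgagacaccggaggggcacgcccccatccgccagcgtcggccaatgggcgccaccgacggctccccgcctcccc
Dusp5: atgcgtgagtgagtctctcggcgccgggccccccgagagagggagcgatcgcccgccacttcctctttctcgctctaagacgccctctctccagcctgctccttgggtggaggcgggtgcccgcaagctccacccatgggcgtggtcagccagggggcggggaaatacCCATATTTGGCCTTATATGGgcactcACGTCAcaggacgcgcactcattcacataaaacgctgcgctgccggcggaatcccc

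The CRE core searched was TGACGT on either strand. It occurred in 26 of the 97 higher genes that had a promoter in the RefSeq table, or 26.8%. The share was 8.51% of 14762 promoters of tested genes and 6.56% of all 27025 promoters of the same length. Among the higher genes, 8 of 25 inside the 6 early lists held it (32%), as did 18 of 72 outside them (25%). Promoters of the higher genes were richer in G and C, with a median of 64.8% against 57.2% for tested genes. Among promoters of 60 to 70% GC, 10 of 43 higher genes (23.3%) and 451 of 4120 tested genes (10.9%) held the core. The AP-1 site TGANTCA, searched likewise and able to share at most 1 end base with a CRE core, was in 6.19% of the higher genes' promoters and 5.63% of tested promoters. NF-kB sites were in 11.3% and 8.07%, CArG boxes in 3.09% and 1.22%, and heat shock elements in 4.12% and 5.61%. A match describes letters in the window and not an occupied site.

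The old libraries held between 5678074 and 8026549 gene counts, and 3 counts were worth 0.357 to 0.571 CPM, a unit that scales counts to library size, here with TMM factors. Old control 1 stood apart: 68.8% of its counted reads were in the entries for reads assigned to no single gene, against 37.7% and 38.9% in the other old controls and 40.6% to 49.0% with Mito-Q. It also detected 33196 genes, against 21891 to 25337 in the other old libraries. The shares of the groups overlapped (exact permutation test, two-sided, p = 0.893, smallest possible p 0.0357). With old control 1 left out, the mean share was 45.9% with Mito-Q against 38.3%, and all 5 Mito-Q libraries lay above both remaining controls. The exact p was then 0.0476, the smallest that 21 splits allow. Leaving out old control 2 or old control 3 instead gave an exact p of 0.381 and 0.476. Kit and Slamf1, transcripts of the sorting gate, were present in every old library. Kit was at 659, 538 and 462 CPM in the old controls and at 724, 772, 666, 806 and 953 with Mito-Q. Slamf1, which encodes CD150, was at 85.3, 104 and 101 CPM against 123, 193, 216, 145 and 128. Both genes were higher with Mito-Q without overlap, but neither was called. Of 12 tested gate and stem cell marker genes, 4 were higher without overlap and 1 was lower. Over all tested genes these shares were 3.87% and 2.20%. Cd48, whose protein the sort excluded, was at 0 in 2 of 3 old controls and 2 of 5 Mito-Q libraries, and reached 17.5 CPM in Mito-Q 3. Of 22 tested HSC identity genes the main edgeR fit called none, and their median log2 fold change was 0.14. DESeq2 called 1 as higher, as did edgeR without young control 3 and young CCCP 3.

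**Figure D1:**
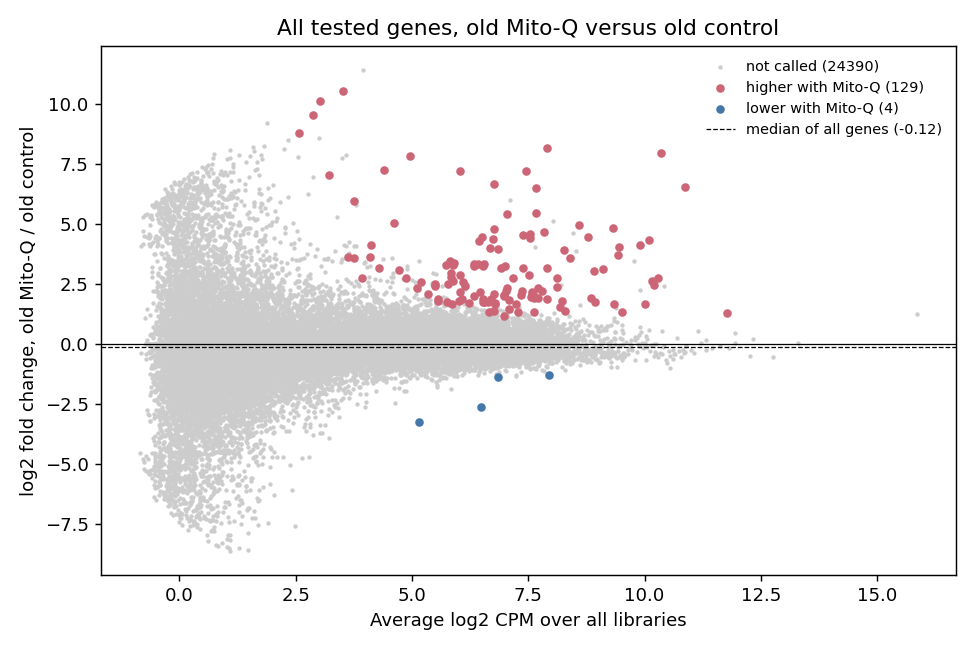
Log2 fold change of old Mito-Q over old control (y) against the average log2 CPM over all libraries (x), 1 point per tested gene. The 129 higher genes (red) lie mostly at middle and high levels, the 4 lower genes are blue, and the dashed line marks the median of all genes at -0.12.

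The 129 higher genes did not overlap between the groups in any case: every Mito-Q library was above every old control library. Of all tested genes, 949 (3.87%) had this property, as did 540 (2.20%) in the other direction. The fitted log2 fold changes of the 129 had a median of 2.75, 93 were above 2 and 33 above 4. In 119 cases the gene was protein coding. These genes had a shorter span than usual, with a median of 13710 bp against 23460 bp for tested protein-coding genes. Their merged exons were not shorter, with a median of 4521 bp against 4266 bp. The median average log2 CPM was 6.79 for the 129 against 2.44 for all tested genes. That average includes the Mito-Q libraries, and genes with few counts are harder to call, so the difference is partly set by the calling. Over all genes the median was -0.12 and 44.9% of log2 fold changes were above 0.

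AP-1 factors are dimers of Fos, Jun, Atf and Maf proteins that bind a common DNA site. Of 12 tested, 8 were higher, and the list's median log2 fold change was 2.56. The log2 fold change was negative for 1 member (-1.33), which the main fit did not call. A member was called lower by DESeq2, with upper-quartile factors, with a minimum count of 30 and with the share of unassigned reads as a covariate. The same held without old control 1, and without young control 3 and young CCCP 3. Fos (ENSMUSG00000021250, chr12:85473890-85477273) was at 44.1, 58.1 and 50.8 CPM in the 3 old controls and at 4662, 5306, 2942, 6241 and 4710 CPM in the 5 Mito-Q libraries. The groups were far apart, and the log2 fold change was 6.55 ± 0.58 (SE, adjusted p = 1.29e-07). Its partner Jun was already abundant in old controls, at 280, 598 and 502 CPM, and rose to 2084, 2679, 1939, 3238 and 2552 CPM (2.44 ± 0.35, adjusted p = 0.000166). Fosb rose from 9.75, 47.8 and 41.0 CPM to between 377 and 1062 CPM, and Junb from 122, 143 and 85.9 CPM to between 805 and 1854 CPM. Atf3, a repressor induced by many stresses, was close to absent in old controls, at 1.07, 0.571 and 5.13 CPM. With Mito-Q it was at 389, 842, 559, 953 and 467 CPM (8.16 ± 0.91, adjusted p = 4.76e-06). Jund, Fosl2 and Mafk were also higher, by 3.35, 2.51 and 2.62 on the log2 scale. The call for Mafk held in 10 of 19 alternative settings, and that for Fosl2 in 16.

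Nr4a receptors are orphan nuclear receptors that restrain HSC division. Nr4a1 (ENSMUSG00000023034, chr15:101254269-101274795) was at 4.04, 7.62 and 16.8 CPM in old controls. With Mito-Q it was at 2587, 2333, 1994, 2120 and 2657 CPM, a spread between libraries that was small beside the difference (7.95 ± 0.70, adjusted p = 1.29e-07). Nr4a2 was at 8.21, 8.95 and 7.43 CPM against 324, 217, 183, 198 and 217 CPM (4.80 ± 0.44, adjusted p = 1.65e-07). Nr4a3 did not overlap between the groups either, at 2.85, 0 and 1.06 CPM against 16.7 to 38.0 CPM, but its adjusted p was 0.135.

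Egr proteins are zinc finger factors downstream of MAP kinase. Egr1, which like Nr4a1 is linked to HSC quiescence, was at 131, 102 and 126 CPM in old controls and at 1838, 2258, 1814, 2297 and 2180 CPM with Mito-Q (4.12 ± 0.37, adjusted p = 1.29e-07). Egr3 was at 0, 0.571 and 0.707 CPM against 54.5, 29.8, 24.7, 15 and 8.29 CPM. Its call (adjusted p = 0.0108) was lost without old control 1 or without old control 2. Egr2 overlapped between groups, at 0.952, 0.571 and 3.71 CPM against 3.28 to 33.9 CPM, and was not called. In all, 2 of 10 tested members of the list were higher, and its median was 0.50.

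Krüppel-like factors are zinc finger proteins, among which Klf2, Klf4 and Klf6 are early response genes of blood and endothelial cells. Of 13 tested, 6 were higher (Klf2, Klf4, Klf6, Klf9, Klf11 and Klf13). Klf2 was at 3.33, 3.62 and 7.78 CPM in old controls and at 387, 441, 317, 522 and 588 CPM with Mito-Q (6.52 ± 0.59, adjusted p = 1.65e-07). Klf4 was at 1.67, 0.190 and 0.531 CPM, the last 2 at or under the level of 3 counts, and at 135, 118, 105, 220 and 77.4 CPM with Mito-Q. Klf6 rose from 40.4, 137 and 84.7 CPM to between 1056 and 2216 CPM (4.07 ± 0.46, adjusted p = 5.48e-06). Klf10, at 150 to 157 CPM in old controls and 383 to 586 CPM with Mito-Q, did not pass in the main test (adjusted p = 0.119).

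**Figure D2:**
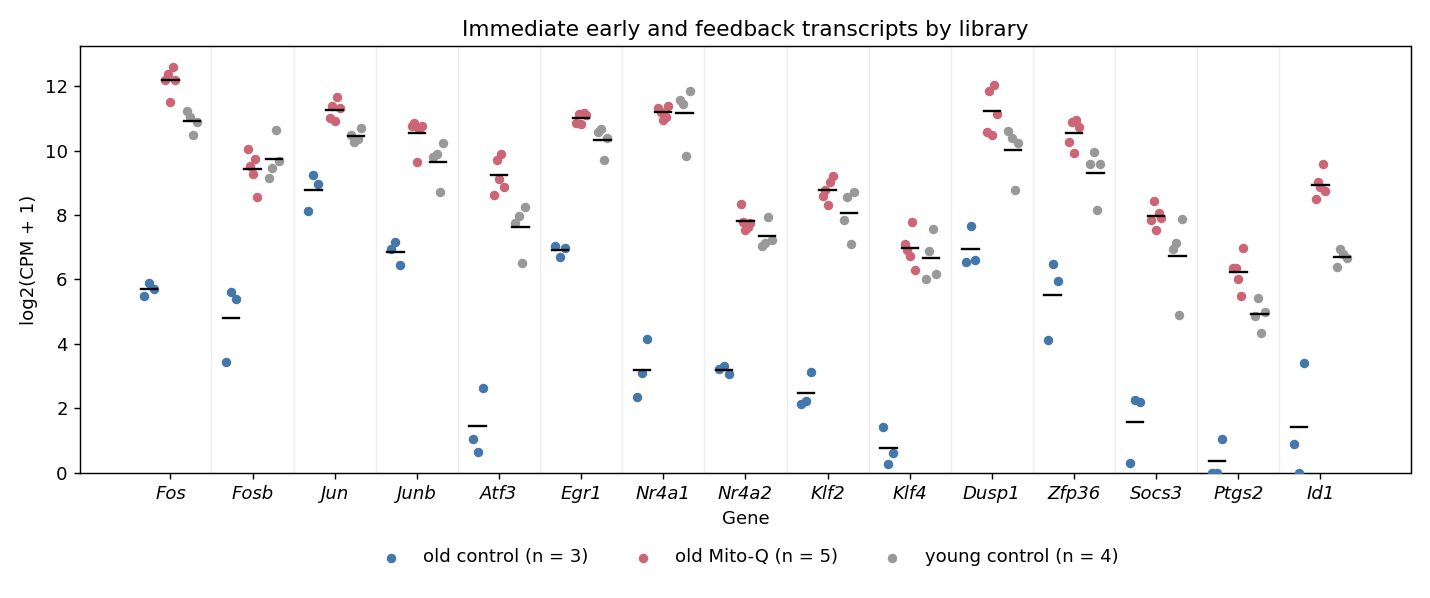
Log2(CPM + 1) of 15 early response and feedback genes in each old control, old Mito-Q and young control library, with black bars for group means. In each of the 15 genes all 5 Mito-Q points lie above the 3 old control points.

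Feedback genes limit the signals that induce the early factors. Dusp1, Dusp2, Dusp5 and Dusp6 are phosphatases of MAP kinases and Spry1 blocks receptor signalling to Ras. These 5 were the higher members among 14 tested, and 13 of the 14 had a positive log2 fold change (median 2.23). The number of calls was 3 when old control 1 or old control 3 was left out. Dusp1 was at 92.7, 200 and 96.6 CPM in old controls and at 1539, 3728, 1434, 4160 and 2240 CPM with Mito-Q (4.34 ± 0.50, adjusted p = 6.19e-06). Dusp5 rose from 6.28 to 9.40 CPM up to 107 to 234 CPM. All 12 tested genes of the Ier, Zfp36 and Btg/Tob list had positive log2 fold changes, and 5 were called. Zfp36 binds AU-rich elements and speeds the decay of early transcripts. It was at 16.2, 87.2 and 60.8 CPM against 1227, 1876, 962, 1961 and 1701 CPM (4.82 ± 0.54, adjusted p = 4.76e-06). The antiproliferative gene Btg2 rose from 13.7, 38.3 and 48.8 CPM to 1083, 1174, 1273, 849 and 904 CPM (4.98 ± 0.58, adjusted p = 6.93e-06). Ier2, Ier3 and Btg1 were higher by 2.76, 2.15 and 1.65.

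NF-kB is a factor of inflammation that is held in the cytosol by inhibitors, several of which it induces itself. Of 15 tested genes 4 were higher, 3 of them regulators of the factor and 1 a subunit, and the list's median was 0.38. Nfkbiz (ENSMUSG00000035356, chr16:55811375-55838899), a nuclear inhibitor family member, had the smallest p of all genes. Its levels were 14.7, 15.4 and 21 CPM in old controls and 394, 401, 374, 521 and 293 CPM with Mito-Q (4.54 ± 0.38, adjusted p = 1.29e-07). Nfkbid was at 17.2, 6.09 and 9.73 CPM against 277, 267, 186, 223 and 191 CPM (4.36 ± 0.44, adjusted p = 8.03e-07). Tnfaip3 and the subunit Rel were higher by 2.18 and 2.02, with calls that held in 14 and 7 of 19 alternative settings, so that 2 calls remained when old control 2 or old control 3 was left out. In the cytokine list 2 of 19 were higher. Socs3, an inhibitor of JAK and STAT signalling, was at 0.238, 3.81 and 3.54 CPM against 231, 344, 183, 265 and 239 CPM (6.69 ± 0.94, adjusted p = 0.000122). Ptgs2, which makes prostaglandin precursors, was at 0, 0 and 1.06 CPM against 81.1, 80.7, 64.1, 43.9 and 126 CPM (7.83 ± 1.19, adjusted p = 0.000344).

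TGF-beta and BMP signals, carried by Smad proteins, help to hold HSCs in quiescence. All 17 tested genes of this pathway had positive log2 fold changes, with a median of 0.97, and 4 were called. Skil (ENSMUSG00000027660, chr3:31095058-31122577), a repressor of Smad proteins, was at 5.23, 8.57 and 10.3 CPM in old controls and 491, 250, 568, 177 and 289 CPM with Mito-Q (5.47 ± 0.47, adjusted p = 1.29e-07). Id1, a Smad target that blocks basic helix-loop-helix factors, was at 0.833, 0 and 9.55 CPM against 357, 525, 462, 762 and 431 CPM (7.21 ± 0.85, adjusted p = 9.05e-06). Id3 was at 0.476, 4.00 and 18.2 CPM against 229 to 395 CPM, and its call was lost without old control 2. The inhibitory Smad7 rose from 3.54 to 9.71 CPM up to 33.0 to 97.2 CPM (3.31 ± 0.60, adjusted p = 0.00317). The receptors and the receptor Smads of the pathway were not called.

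The stress and survival lists gave 1 to 4 calls each, or none. Ppp1r15a, which removes the phosphate that blocks translation initiation in the integrated stress response, was the 1 of 18 tested genes that was higher. It was at 64.6, 41.5 and 70.6 CPM against 708, 850, 466, 681 and 856 CPM (3.60 ± 0.33, adjusted p = 1.83e-07). Atf4, the main factor of that response, was at 70.2, 136 and 131 CPM against 243, 348, 252, 317 and 191 CPM, without overlap, but was not called (1.27 ± 0.33, adjusted p = 0.0962). Among 24 chaperones 4 were higher: Dnajb1 (3.06), Dnajb9 (2.51), Hspa4 (1.81) and Hspa5 (1.68). Leaving out old control 3 reduced these to 2. The mitochondrial unfolded protein response list had no called gene among 14 and a median of 0.02. The cyclin-dependent kinase inhibitor Cdkn1a was at 4.28, 31.6 and 19.1 CPM against 506, 511, 432, 454 and 421 CPM (4.67 ± 0.64, adjusted p = 8.10e-05). The other 4 tested inhibitors of this family (Cdkn1b, Cdkn1c, Cdkn2c and Cdkn2d) were not called. The anti-apoptotic Mcl1, on which HSC survival depends, was at 127, 123 and 103 CPM against 967, 1317, 866, 941 and 1070 CPM (3.13 ± 0.33, adjusted p = 1.73e-06), while the other 11 tested BCL2 family genes were not called. Gadd45b and Plk3 were the 2 called genes of 19 in the p53 and Gadd45 list, at 3.24 and 5.03. The call for Plk3 was lost when any of old controls 1 and 3 or Mito-Q 1, 2, 4 and 5 was left out.

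**Figure D3:**
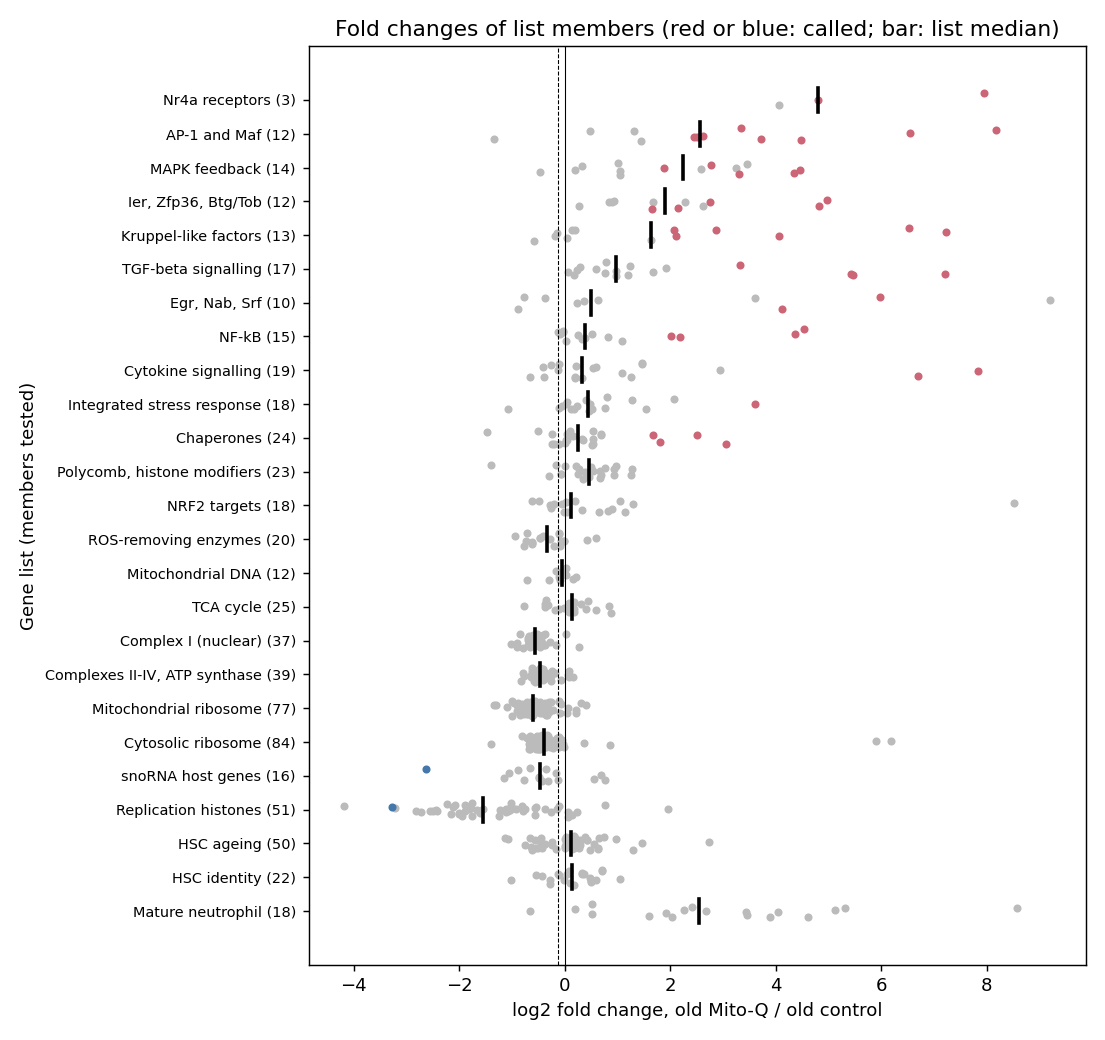
Log2 fold changes of the tested members of 25 gene lists, with the number tested in brackets, called genes in colour and a black bar at each list's median. The order of the lists was chosen by hand, with early response lists near the top. That called genes lie mostly in the upper lists therefore reflects this order. Most members of the nuclear respiratory chain and ribosome lists lie left of the dashed line at the all-gene median of -0.12, while a cytosolic ribosome gene reaches 6.19.

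Mito-Q acts at mitochondria, so genes of that organelle were examined next. Of 37 tested nuclear genes of complex I, which takes electrons from NADH, none was called. Their median log2 fold change was -0.57 and 35 of the 37 were negative, 5 with an unadjusted p below 0.05, which 10% of all tested genes (2464) had. The nuclear genes of complexes II to IV and ATP synthase (39 tested) had a median of -0.48, the mitochondrial ribosome (77) -0.60 and the cytosolic ribosome (84) -0.39, also with no call. Their counts with an unadjusted p below 0.05 were 1, 19 and 4. DESeq2 called 1 mitochondrial ribosome gene, which was lower, and none of the others. Without young control 3 and young CCCP 3, edgeR called 2 mitochondrial ribosome genes, both lower. These differences followed individual libraries and did not separate the groups. Summed complex I CPM was 4227 in old control 1, 9151 in old control 2 and 11712 in old control 3, and 5062, 5314, 8503, 4970 and 4586 in the Mito-Q libraries. Old control 1 was thus below all 5 Mito-Q libraries and the other old controls above them all. The median of complex I became -0.94 when old control 1 was left out and -0.25 when old control 3 was, while the median of all genes was 0.31 and -0.09 in those fits. Leaving out the same libraries gave medians of -0.85 and -0.17 for complexes II to IV and ATP synthase, -0.94 (with 2 genes called lower) and -0.29 for the mitochondrial ribosome, and -0.73 and -0.19 for the cytosolic ribosome. Mitochondrial ribosome sums had the same order, at 4563, 9440 and 12015 CPM in old controls against 4811 to 8216 CPM. With the share of unassigned reads as a covariate, the median of complex I was -0.59 and that of all genes 0.12.

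The 12 tested genes on mitochondrial DNA had a median of -0.05. Their median changed sign between settings, from -0.49 to 0.12 when old controls 1 and 3 respectively were left out, so no direction was assigned. mt-Co1, a catalytic subunit of complex IV, was at 2431, 8057 and 6498 CPM against 4433, 5734, 12565, 3652 and 6438 CPM. Mitochondrial DNA took 1.55%, 3.13% and 2.55% of gene counts in old controls and 2.22%, 1.90%, 4.41%, 1.78% and 2.06% with Mito-Q, which overlapped (exact permutation test, two-sided, p = 0.946).

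Genes of the TCA cycle were measured more precisely than most. The 95% interval of the log2 fold change lay within 1 of 0 for 15 of 25, against 7.14% of all tested genes, and the median was 0.13. Medians of 0.05 for mitochondrial biogenesis (15 tested), -0.00 for fusion and fission (16), 0.02 for uncoupling and calcium transport (14) and 0.04 for fatty acid oxidation (18) came with no call. The biogenesis factor Tfam was at 56.9, 74.5 and 75.3 CPM against 92.0, 70.8, 73.2, 56.5 and 56 CPM, with an interval from -0.63 to 0.66. Opa1, which fuses inner membranes, was at 22, 30.8 and 35.9 CPM against 56.9, 50.9, 93.3, 61.2 and 51.5 CPM, without overlap, but did not pass (1.09 ± 0.36, adjusted p = 0.285).

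Antioxidant genes gave no call in the main fit. Among 18 targets of NRF2, the factor that answers oxidative stress, the median was 0.12 and 6 had an unadjusted p below 0.05. DESeq2 called 2 as higher, and edgeR called 2 as higher without young control 3 and young CCCP 3. Gclm, a subunit of the enzyme that starts glutathione synthesis, was at 116, 240 and 241 CPM against 149, 210, 211, 209 and 181 CPM, with an interval from -0.94 to 0.84. Hmox1, which degrades haem, was at 0 in all 3 old controls and at 9.41, 0, 6.05, 0.976 and 16.7 CPM with Mito-Q, and was not called (adjusted p = 0.151). Of 20 enzymes that remove reactive oxygen species, 18 had negative log2 fold changes with a median of -0.34, and leaving out old controls 1 and 3 in turn moved that median to -0.67 and -0.20. Sod2, the superoxide dismutase of the mitochondrial matrix, was at 142, 221 and 327 CPM against 152, 158, 180, 123 and 139 CPM (-0.61 ± 0.28, adjusted p = 0.462).

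**Figure D4:**
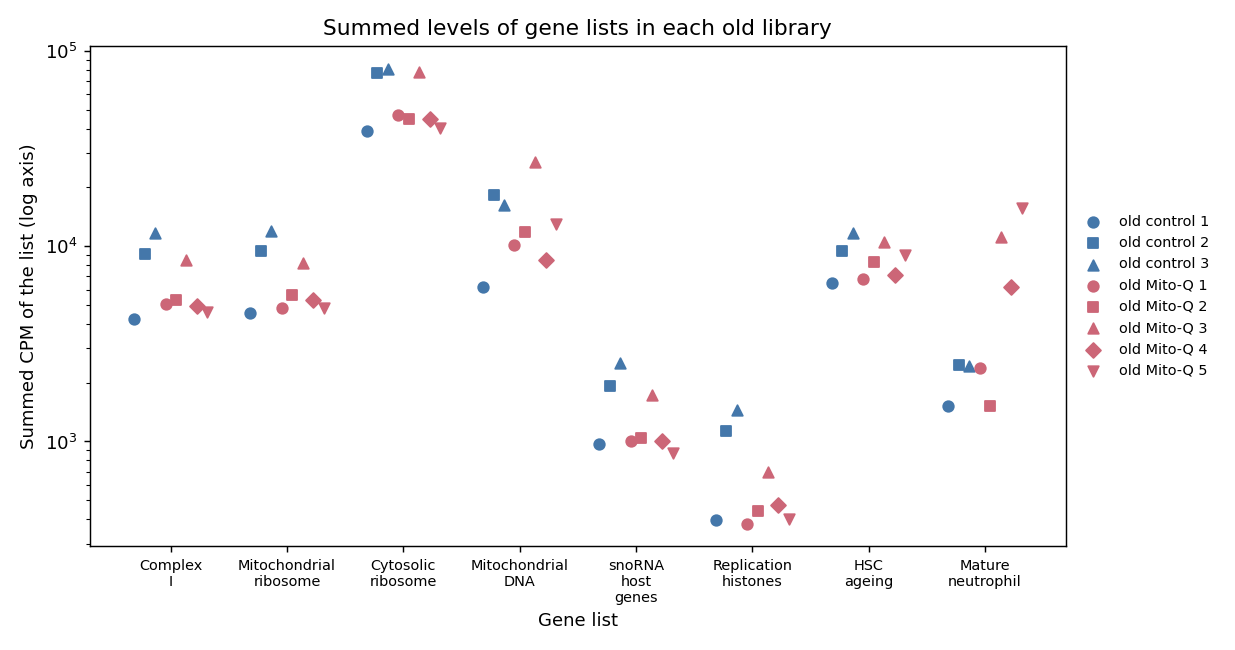
Summed CPM (log axis) of 8 gene lists in each of the 8 old libraries, blue for old control and red for old Mito-Q, with 1 symbol per library. Old control 1 lies below the other old controls in every list, and the neutrophil list is highest in Mito-Q 3, 4 and 5.

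The 4 lower genes had no common role. Snhg20, a long non-coding RNA that hosts a small nucleolar RNA, was at 118, 219 and 413 CPM in old controls and at 32.0, 35.6, 41.7, 39.9 and 52.9 CPM with Mito-Q. The groups were apart (-2.63 ± 0.39, adjusted p = 0.000219), and the call held in all 19 alternative settings. Hist1h1d, a linker histone, was at 21.9, 63.4 and 100 CPM against 4.49, 5.65, 7.35, 12.4 and 2.19 CPM (-3.27 ± 0.60, adjusted p = 0.00406) and kept its call in 17. Luc7l3, a splicing factor, fell by 1.39 and Laptm4a, a lysosomal membrane protein, by 1.27, with calls in 12 and 11 settings. Replication histones, whose transcripts lack the usual poly(A) tail, had a median of -1.55 over 51 tested genes. Of these, 45 were negative and 11 were lower without overlap between groups, a property of 2.20% of all tested genes. When old control 3 was left out the median was -1.02 and no histone gene was called. Their summed CPM again placed old control 1 with the Mito-Q libraries, at 398, 1133 and 1448 in old controls against 380, 442, 700, 476 and 399.

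Transcripts that mark old HSCs were followed with 50 tested ageing genes, listed with results of this series known. None was called against old control by the main edgeR fit, and 6 had an unadjusted p below 0.05. DESeq2 called 2 as higher. Without young control 3 and young CCCP 3, edgeR called 2 as higher and 1 as lower. With the replicate block it called 1 in each direction. The median log2 fold change was 0.11. The 95% interval lay within 1 of 0 for 10 of the 50, so for most a 2-fold change was inside the interval. Clu, which encodes the chaperone clusterin, was at 287, 420 and 291 CPM in old controls and 233, 471, 335, 323 and 431 CPM with Mito-Q, with an interval from -0.56 to 0.78. The young controls had 38.2, 59.2, 22.8 and 52.2 CPM. Cavin2, a caveola protein, was at 314, 368 and 383 CPM against 337, 364, 414, 334 and 440 CPM (interval -0.43 to 0.61). The adhesion gene Selp was at 296, 246 and 216 CPM against 219, 312, 172, 288 and 373 CPM. The Mito-Q and old control libraries overlapped in these genes. Nupr1, a stress-induced chromatin protein, was lower with an interval below 0, from 225, 551 and 1065 CPM to 161, 311, 607, 200 and 185 CPM, but was not called (-1.07 ± 0.44, adjusted p = 0.408). Mycn, whose protein belongs to the Myc family, did not overlap, at 193, 249 and 196 CPM against 92.0, 131, 46.9, 112 and 102 CPM, and was not called (-1.14 ± 0.43, adjusted p = 0.360).

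**Figure D5:**
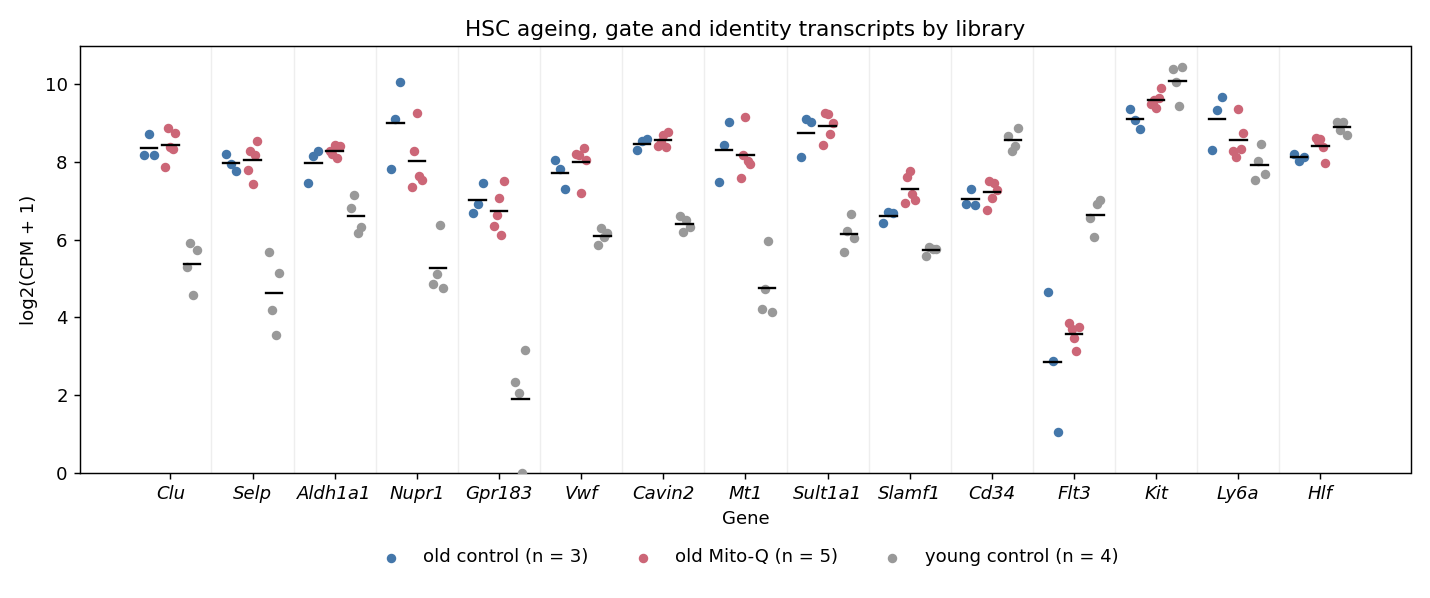
Log2(CPM + 1) of 15 HSC ageing, gate and identity genes in each library, with black bars for group means. In Clu, Selp, Vwf and Cavin2 the old Mito-Q points overlap the old control points and lie above all young control points.

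The old Mito-Q libraries were also set beside young controls, with the same Mito-Q libraries in both comparisons. Against young control 35 genes were called (0.143%), 32 higher (0.130%) and 3 lower (0.0122%). The count was 14, 21 and 20 without young controls 1, 2 and 4. Of the ageing list 17 genes were higher and none lower, and the list's median was 1.63. Clu (3.05), Cavin2 (2.16), Clca3a1 (3.15), Selp (3.27), Gpr183 (4.85) and Plscr2 (4.08) had the smallest p among the higher genes. The lower genes were Flt3 (-3.19), Cd34 (-1.35) and Vegfa (-2.05), the first pair being surface proteins of multipotent progenitors and the last a vascular growth factor. No tested member of the 6 early lists was called against young control. Nr4a1 was at 3048, 2780, 911 and 3685 CPM in the young controls, so its Mito-Q libraries lay within their range. Fos was at 2380, 2088, 1436 and 1903 CPM, below all Mito-Q libraries, and the difference was not called (1.29, adjusted p = 0.459). Btg2 was at 259, 246, 286 and 261 CPM, also below all Mito-Q libraries (2.01, adjusted p = 0.0677).

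Among the 129 genes higher than in old control, 127 were not called against young control, with Sbno2 higher and Vegfa lower. In all 129 the young control mean was above the old control mean, and in 71 the Mito-Q mean was above the young control mean. Their median log2 fold change against young control was 0.08. Since they were picked for low values in old control, this is a description and not a test of a return to young levels. Vegfa lay between the references: 6.90, 4.57 and 6.90 CPM in old control, 66.4, 29.2, 36.8, 28.3 and 49.9 CPM with Mito-Q, and 182, 159, 127 and 228 CPM in young control. The log2 fold change was 2.77 ± 0.50 against old control (adjusted p = 0.00295).

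Markers of other marrow cells were checked for all lists. Of 18 tested genes of mature neutrophils the main edgeR fit called none, yet 17 had positive log2 fold changes and the median was 2.54. An unadjusted p below 0.05 was found for 9. DESeq2 called 8 as higher, and edgeR with no filter on low counts called 2. Their summed CPM was 1513, 2457 and 2436 in old controls and 2385, 1514, 11082, 6208 and 15685 with Mito-Q. Mito-Q 3, 4 and 5 were thus above every old control, while Mito-Q 1 and 2 were not. Camp, a granule protein, was at 36.6, 44.7 and 26.9 CPM against 120, 28.0, 777, 485 and 1264 CPM. Among 15 tested genes of myeloid progenitors 12 were positive, with a median of 0.97, and Cebpb was called. This factor of granulocyte and monocyte development was at 37.3, 87.8 and 90.5 CPM against 216, 289, 179, 301 and 287 CPM (1.82 ± 0.33, adjusted p = 0.00295). The progenitor protease Elane was at 16.3, 214 and 15 CPM against 167, 3.98, 498, 298 and 537 CPM. Summed CPM of the AP-1 list was 688, 1123 and 974 in old controls and 10486, 11938, 7203, 13498 and 10436 with Mito-Q. Its relation to these markers was not tested. The basophil proteases Mcpt8 and Prss34 were concentrated in Mito-Q 1 (72.2 and 137 CPM) and Mito-Q 5 (73.4 and 107 CPM) and at or below 2.60 CPM in the other old libraries. Summed markers of monocytes (48 to 70 CPM in old control, 38 to 82 with Mito-Q), B cells (101 to 210, 88 to 147), T and NK cells (153 to 281, 135 to 212) and endothelial or stromal cells (83 to 183, 115 to 187) overlapped, as did erythroid (1789 to 4061, 1952 to 3804) and megakaryocyte markers (2347 to 2831, 1784 to 3045). Cd3e was at 0 in 3 of the 8 old libraries, C1qa in 6 and Cdh5 in 3. The part of neutrophil transcripts in other results was not tested.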

How the data were processed

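Per the submitters' processing notes, reads were trimmed with Trim Galore and aligned with STAR 2.7 to GRCm38. The authors deposited 1 table of raw read counts per library. How reads were counted, with which annotation and strand setting, and whether duplicates were removed is not given in the sources used here. Each table listed 54838 Ensembl genes and 5 footer entries, which were kept out of library sizes and tests and held 37.7% to 68.8% of counted reads in the old libraries. GENCODE M21 gave names and positions for 54809 genes.

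The main test was a single edgeR 4.0.16 fit (R 4.3.3) over all 17 libraries. It used TMM scaling, a filterByExpr minimum of 10 counts by group and a robust quasi-likelihood estimate of dispersion. Old Mito-Q was tested against old control and against young control, two-sided, with Benjamini-Hochberg adjustment over 24523 genes. The filter counted libraries of all groups, young CCCP included. With only the 2 old groups in the fit, 17525 genes were tested and 141 were called (138 higher, 3 lower). Calls have an adjusted p below 0.05. Fold changes are log2 estimates ± SE, intervals are 95%, and CPM values carry TMM factors. Shares per library were compared by exact permutation (56 splits, or 21 with 1 old control left out). The fit was tested on simulated data with the same dispersion for every gene, a simpler setting than these libraries. The chi-square per degree of freedom between libraries of a group was at least 20.9, so no library was a duplicate.

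Genes eligible to be named were set by rule, and not all are printed: the 20 higher and up to 10 lower genes of smallest p, every called list member, the first 4 tested members of each list, the 8 genes that varied most among Mito-Q libraries, and 6 higher and 6 lower genes against young control. Members and lists were chosen with earlier results of these data known. Alternatives were 3 other scalings, 2 filters, DESeq2 1.42.0, limma-voom (limma 3.58.1), a covariate, a replicate block, fewer groups and leaving out libraries. The 3-count level covers counting error only, as reads carry no molecular identifiers. Overlapping genes cannot be told apart where strand was not counted.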

Additional observations from a re-analysis of the deposited data

Results flagged for a closer look

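Of 64 called genes eligible under the naming rule, 4 had 1 Mito-Q library far from the other 4, as measured by Dixon's gap ratio. Chance gives such a gap in about 1 in 20 groups. Tiparp, an ADP-ribosyltransferase induced by the aryl hydrocarbon receptor, was at 145 CPM in Mito-Q 4 against 284 to 350 CPM in the others. Junb was at 805 CPM in Mito-Q 3 against 1634 to 1854 CPM, and Jund at 115 CPM in the same library against 201 to 241 CPM. Aff4, a scaffold of the super elongation complex, was at 221 CPM in Mito-Q 1 against 144 to 156 CPM. In each case the outlying library was still above every old control. The share of gene counts on mitochondrial DNA was 4.41% in Mito-Q 3 against 1.78% to 2.22% in the other Mito-Q libraries.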

How the results depend on the processing

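No called gene changed sign in any of 19 alternative settings, and 64 of the 133 were called in all of them. Against old control, DESeq2 called 442 genes (335 higher, 107 lower). Without the 2 young libraries that stood apart (young control 3 and young CCCP 3), edgeR called 341 (290 higher, 51 lower). All 133 genes were called in both of these settings. Leaving out 1 library gave between 79 and 142 genes, the lowest counts coming without old control 2 (79) and old control 3 (81). Without old control 1 there were 96 higher and 46 lower genes. The median of all genes moved from -0.12 to -0.25 with upper-quartile factors, to 0.12 with the share of unassigned reads as a covariate and to 0.31 without old control 1. Against young control the 35 calls became 90 with no filter, 181 with DESeq2, 57 with limma-voom and 68 without the 2 young libraries, and between 14 and 34 when 1 library was left out (14, 21 and 20 without young controls 1, 2 and 4). The cause of these shifts was not tested.

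Same-numbered old control and Mito-Q libraries had correlations of -0.04, 0.06 and -0.01 in their deviations from the group means. Those of differently numbered libraries ran from -0.09 to 0.05. With so few pairs these values cannot show whether libraries were paired. With the replicate block 130 genes were called against old control and 40 against young control. The median SE was 1.20 on the log2 scale over all genes, and the 95% interval lay within 1 of 0 for 7.14% of them.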

Other observations

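Among the 129 higher genes, 71 belonged to no list. The following were chosen after their values were seen. Hes1, a target of Notch signalling, was at 3.09, 8.00 and 14.5 CPM in old controls and at 191, 167, 206, 108 and 152 CPM with Mito-Q (log2 fold change 4.28 ± 0.59, edgeR adjusted p = 7.76e-05). Sik1, a kinase induced by cyclic AMP, was at 8.45, 4.19 and 14 CPM against 183, 134, 88.1, 138 and 162 CPM (3.99 ± 0.51, adjusted p = 3.03e-05). Pde4b, which degrades cyclic AMP, rose from 161, 254 and 196 CPM to between 588 and 769 CPM (1.73 ± 0.27, adjusted p = 0.000494). The ribonuclease Zc3h12a, which destroys inflammatory transcripts, rose from 3.36 to 5.95 CPM up to 28.9 to 57.6 CPM. Neat1, the RNA scaffold of paraspeckles, was at 88.6, 89.3 and 99.6 CPM against 459, 338, 569, 440 and 315 CPM (2.20 ± 0.40, adjusted p = 0.00359). Sbno2, a corepressor induced by interleukin 10, was higher with Mito-Q than in both references, at 157, 70.8 and 65.1 CPM in old control, 498, 516, 292, 298 and 439 CPM with Mito-Q and 68.5, 115, 69.8 and 150 CPM in young control.

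Clock genes that also answer acute signals gave 3 calls among 17 tested. Per1 was at 14.3, 9.71 and 12.0 CPM against 216, 127, 140, 210 and 234 CPM (3.94 ± 0.50, adjusted p = 2.26e-05), and Bhlhe40 was at 29.5, 8.76 and 19.8 CPM against 393, 592, 420, 309 and 369 CPM (4.42 ± 0.48, adjusted p = 3.47e-06). Nr1d2 was higher by 1.69, a call that held in 6 of 19 alternative settings. In the list of factors that release paused RNA polymerase II, Ccnt1 was higher by 2.21 (in all 19 settings) and Aff4 by 1.33 (in 4). Interferon response, S phase and mitosis lists, with 20 tested genes each, had no call and medians of -0.11, 0.34 and 0.08.

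A few further genes were called. Tsc22d2, which belongs to no list, was at 23.4, 22.5 and 25.5 CPM in old controls against 327, 194, 205, 228 and 197 CPM with Mito-Q (3.27 ± 0.36, adjusted p = 3.47e-06). Rgs2 and Rgs1, which dampen G protein signals, were the 2 called genes of 9 in their list. Rgs2 was at 18.9, 24.0 and 45.8 CPM against 312, 275, 324, 233 and 172 CPM (3.15 ± 0.41, adjusted p = 4.11e-05). Rgs1 was higher by 1.65, a call that held in 10 of 19 alternative settings. The RNA helicase Ddx5 was higher by 1.34 (in 17 settings), and the DNA demethylase Tet2 by 1.73 (in 5).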
